A study of Bos taurus with 15 samples.

Results

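The genes described here are those by which B cells and the plasma cells that arise from them are usually recognised. They were chosen by symbol from a list of 9 (IGJ, CD79A, CD79B, MS4A1, BLNK, PAX5, TNFRSF17, MZB1 and POU2AF1), and 6 of the 9 are rows of all 6 tables of comparisons, out of 13896 genes. CD79B, PAX5 and TNFRSF17 were not analysed here. RNA-seq was performed on subcutaneous adipose tissue of the dewlap of primiparous Holstein cows fasted before the biopsy, in 15 libraries, 3 in each of 5 groups. The -4 wkpp libraries (weeks peripartum) were taken before the diets began, the MNEB libraries at 1 and 16 wkpp come from cows with a moderate negative energy balance, labelled with a high energy diet (HE), and the SNEB libraries at 1 and 16 wkpp from cows with a severe negative energy balance, labelled with a low energy diet (LE). Diet and severity of the energy balance are thus the same split of the libraries and cannot be told apart, and per the study's methods the sequenced cows were those with the most extreme balances. The 3 libraries of -4 wkpp served in the comparisons with both groups.

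A B cell carries membrane immunoglobulin on its surface, and the signal from it passes through CD79A and CD79B, kinases and the adaptor BLNK. When a B cell differentiates into a plasma cell it lowers surface proteins such as CD20, the product of MS4A1, enlarges its endoplasmic reticulum and secretes antibody; the J chain then joins the units of secreted IgA and IgM. Adipose tissue holds few such cells, which lie among macrophages, T cells and vessels.

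Read counts per library were worked back from the mean normalised counts in the 6 tables, once for exonic reads and once for the whole gene, introns included. All 6 genes were recovered in all 15 libraries. Which labelled sample a recovered library is could not be read from the tables, so libraries are called a, b and c in order of decreasing depth within their group. Depth on exons was unequal. The 6 MNEB libraries held 1.97 to 7.31 megareads (M) of exonic reads and the other 9 held 7.55 to 14.2 M. Per the study's sequencing summary, total reads per library spanned similar ranges in the MNEB and the other groups. The share of uniquely aligned reads, in contrast, was lower in every MNEB library than in any other library. What part this share has in the MNEB values was not tested. A normalised count is a read count divided by the size factor of its library (median of ratios over all 15 libraries). Sample titles also carry a tag, m1 for the -4 wkpp, MNEB 1 wkpp and SNEB 16 wkpp groups and m2 for the other groups, whose meaning is not given in the sources used here; in 5 of the 6 comparisons the tag and the groups cannot be told apart, the exception being -4 wkpp against MNEB 1 wkpp. The label of the tissue was checked on 8 adipocyte genes, each of which had exonic reads in every group, with summed normalised counts from 12056 (MNEB 16 wkpp, library c) to 90607 (SNEB 1 wkpp, library c).

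IGJ, listed by RefSeq (assembly ARS-UCD2.0) as JCHAIN, encodes the J chain. It had the most reads of the 6 genes, 15923 exonic reads over the 15 libraries. Its normalised exonic counts were 863, 469 and 1162 in the -4 wkpp libraries a, b and c. At 1 wkpp they were 293, 227 and 210 in MNEB and 315, 943 and 509 in SNEB. At 16 wkpp they were 3583, 3557 and 1037 in MNEB and 578, 761 and 746 in SNEB. The 3 MNEB 1 wkpp libraries were therefore the lowest of all 15, and libraries a and b of MNEB 16 wkpp were the highest. In order of their means the groups were MNEB 16 wkpp (2726 ± 1463, SD, n = 3), -4 wkpp (831 ± 348), SNEB 16 wkpp (695 ± 101), SNEB 1 wkpp (589 ± 322) and MNEB 1 wkpp (243 ± 44.0). Of the neighbours in that order, SNEB 1 wkpp and MNEB 1 wkpp did not overlap, whereas each of the other neighbouring pairs did. Pooled over a group, IGJ reads per M of exonic reads were 423 in MNEB 16 wkpp (95% exact Poisson interval 412 to 434) and 37.1 in MNEB 1 wkpp (33.6 to 40.8); such intervals cover counting error only and not the spread between cows.

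MZB1, a protein of the endoplasmic reticulum that assists antibody assembly in plasma cells, was sparsely covered, with 134 exonic reads in all libraries together. In MNEB 16 wkpp the libraries held 30, 5 and 9 reads, or normalised counts of 29.3, 12.9 and 24.4. In MNEB 1 wkpp they held 4, 2 and 2 reads, or 4.17, 5.40 and 7.35. Every MNEB 16 wkpp library was thus above every MNEB 1 wkpp library, although the latter rest on single-digit counts. The -4 wkpp libraries gave 2.30, 3.66 and 10.3, the SNEB 1 wkpp libraries 2.70, 15.1 and 1.96, and the SNEB 16 wkpp libraries 7.27, 5.51 and 1.94. The mean of MNEB 16 wkpp was 22.2 ± 8.46 (SD, n = 3), and the other 4 group means lay between 4.91 and 6.59 with ranges that overlapped.

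POU2AF1, the coactivator that works with octamer-binding factors at immunoglobulin promoters, had 305 exonic reads. Its normalised counts in MNEB 16 wkpp were 50.9, 54.0 and 16.2, with a mean of 40.4 ± 20.9 (SD, n = 3). In MNEB 1 wkpp they were 9.38, 13.5 and 7.35. Library c of MNEB 16 wkpp, at 16.2, lay within the range of the SNEB 16 wkpp libraries (22.3, 12.2 and 10.3), of the SNEB 1 wkpp libraries (9.73, 21.8 and 8.49) and of the -4 wkpp libraries (10.4, 14.7 and 17.8). The same library was the lowest of its group for IGJ.

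**Figure D1:**
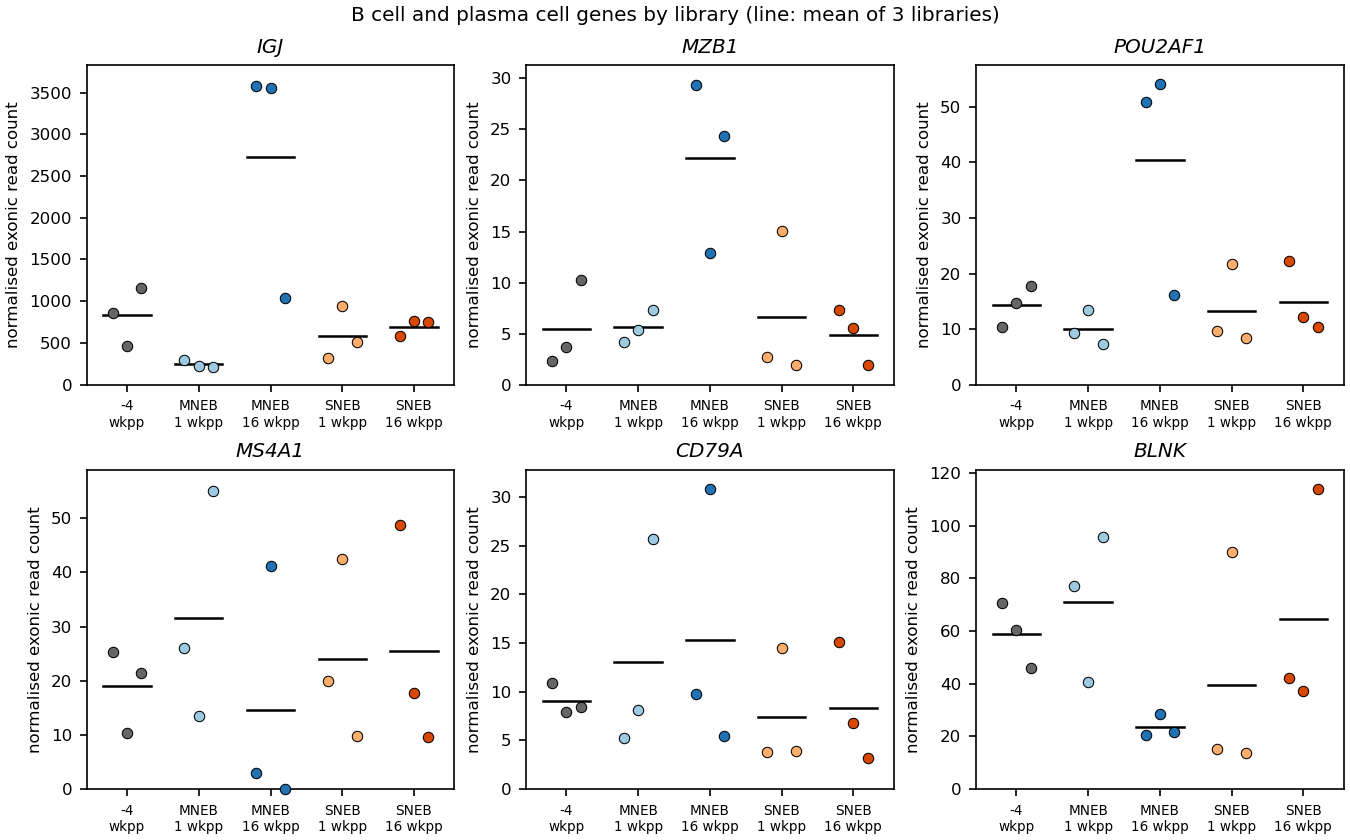
Normalised exonic read counts of the 6 genes (y axis, linear, own scale for each gene) in the 5 groups (x axis); each point is 1 library, drawn from left to right as a, b and c, and the line is the mean of 3 libraries. For IGJ the MNEB 16 wkpp libraries span 1037 to 3583 and the MNEB 1 wkpp libraries 210 to 293, and for MZB1 the corresponding spans are 12.9 to 29.3 and 4.17 to 7.35.

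CD79A, the signalling chain of the B cell receptor, had 164 exonic reads and MS4A1 had 414. Neither gene had a pattern by group like that of IGJ. Normalised CD79A counts spanned 7.94 to 10.9 in -4 wkpp, 5.21 to 25.7 in MNEB 1 wkpp, 5.42 to 30.8 in MNEB 16 wkpp, 3.78 to 14.5 in SNEB 1 wkpp and 3.23 to 15.1 in SNEB 16 wkpp, so that every pair of groups overlapped. For MS4A1 the libraries of MNEB 16 wkpp were at 2.93, 41.1 and 0. The library at 0 (c, 0 exonic reads) had 3 reads over the whole gene, and at its depth a count of 0 allows up to 3 reads, or a normalised count of up to 8.13. The other groups had MS4A1 counts of 10.4 to 25.3 (-4 wkpp), 13.5 to 55.1 (MNEB 1 wkpp), 9.79 to 42.5 (SNEB 1 wkpp) and 9.68 to 48.8 (SNEB 16 wkpp). Each of these overlapped with the others and with MNEB 16 wkpp.

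BLNK, the adaptor that links the kinase SYK to downstream signalling in B cells and is also made by macrophages, had 955 exonic reads. In MNEB 16 wkpp its normalised counts were 20.5, 28.3 and 21.7, the narrowest range of any group for this gene. They were 77.1, 40.5 and 95.6 in MNEB 1 wkpp and 42.1, 37.3 and 114 in SNEB 16 wkpp. Both of these groups thus lay above MNEB 16 wkpp in every library, which is the opposite order to that of IGJ and MZB1. The -4 wkpp libraries gave 70.8, 60.5 and 45.8. Those of SNEB 1 wkpp gave 15.1, 90.1 and 13.7, with library b far above the others.

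Libraries a and c of SNEB 1 wkpp were below library b for all 6 genes. In that library the 10 pan-leucocyte genes summed to 8617, against 3504 and 2844 in libraries a and c, and the 9 macrophage genes to 26447, against 16545 and 12035. In library a of SNEB 16 wkpp MS4A1, CD79A, MZB1 and POU2AF1 were each the highest of their group, whereas IGJ was the lowest at 578. In such bulk samples, fewer cells of a type and less RNA per cell cannot be told apart.

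The differences between groups were fitted with limma on voom weights, over all genes with at least 10 reads in the 6 libraries of a comparison, and a gene was called when its Benjamini-Hochberg adjusted p was below 0.01 in exons and in the whole gene with the same sign. The members were chosen with earlier results from these 6 comparisons in view, so their fold changes are given as a description. All 6 members passed the filter in each comparison, and 0 of 6 were called in any of them. Per the study's methods each animal was sampled at all times, so libraries of a group at different times may come from the same cows, while the fits treat all libraries as independent. A log2 fold change is that of the first group over the second, ± its standard error, with n = 3 libraries against 3.

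Between 1 and 16 wkpp in MNEB, IGJ, MS4A1 and BLNK had their largest fold changes of the 6 comparisons, and the members went both ways. IGJ had a log2 fold change of -3.24 ± 0.48 in exons and -3.07 ± 0.49 in the whole gene, which is a level 9.46 and 8.41 times lower at 1 wkpp. MZB1 gave -2.03 ± 0.73 in exons and POU2AF1 gave -1.92 ± 0.71. On the other side were MS4A1 (2.39 ± 1.03) and BLNK (1.57 ± 0.47), while CD79A gave -0.45 ± 0.83. In the whole gene MS4A1 was at 1.19 ± 0.73, with an unadjusted limma p of 0.15, and its groups overlapped in both kinds of reads. IGJ, MZB1 and POU2AF1 thus had lower values at 1 wkpp than at 16 wkpp, and the genes of the surface protein CD20 and of the adaptor BLNK had higher ones. IGJ had the smallest exonic p of the 11774 genes tested, but its limma adjusted p was 0.25 in exons and 0.27 in the whole gene, and 0% of all genes were called in this comparison. An unadjusted exonic p below 0.05 was reached by 5 of the 6 members and by 11.6% of all genes. For 4 members (IGJ, MZB1, POU2AF1 and BLNK) the libraries of the groups did not overlap in exons, as for 18.8% of all genes; in the whole gene POU2AF1 overlapped. The median log2 fold change was -1.18 over the members and 0.03 over all genes. The exonic value of MS4A1 depended on the MNEB 16 wkpp libraries, being 3.46 without library b and 1.79 without library a. CD79A was at 0.30 without library a of MNEB 1 wkpp. Without library c of MNEB 16 wkpp the exonic value of IGJ was -3.87 with a limma adjusted p of 0.004, and it was still not called in exons and whole gene together. The deepest libraries alone (a of each group) held IGJ at 293 and 3583, and BLNK at 77.1 and 20.5.

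In SNEB cows the corresponding comparison gave values that moved with single libraries. IGJ had a log2 fold change of -0.39 ± 0.35 between 1 and 16 wkpp, MZB1 of 0.00 ± 0.87, POU2AF1 of -0.24 ± 0.52, MS4A1 of -0.05 ± 0.70 and CD79A of -0.25 ± 0.76. BLNK gave -1.04 ± 0.72. Without library b of SNEB 1 wkpp the values were -1.93 for BLNK, -0.88 for CD79A, -0.87 for MZB1, -0.81 for IGJ, -0.66 for POU2AF1 and -0.58 for MS4A1. Without library a of SNEB 16 wkpp MS4A1 was at 0.62, CD79A at 0.33 and POU2AF1 at 0.11, and IGJ was at -0.02 without library a of SNEB 1 wkpp. None of the 6 members had an unadjusted exonic p below 0.05, against 6.97% of all genes, and the groups overlapped for each of them, whereas 12% of all genes did not overlap. Here too 0% of all genes were called. The median log2 fold change was -0.25 over the members and -0.01 over all genes.

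Whether the change from 1 to 16 wkpp differed between SNEB and MNEB was fitted as an interaction over the 12 libraries of these groups. The difference of the log2 fold changes (SNEB minus MNEB) was 2.83 ± 0.69 for IGJ and -2.58 ± 1.07 for BLNK, and their limma adjusted p were both 0.98 in exons. MZB1 gave 1.96 ± 1.11, POU2AF1 1.65 ± 0.85, MS4A1 -2.37 ± 1.39 and CD79A 0.14 ± 1.16. An unadjusted exonic p below 0.05 was reached by IGJ, BLNK and 4.57% of all genes, and 0% of all genes were called. Single libraries moved several of these values. Without library b of SNEB 1 wkpp BLNK was at -3.48 and MZB1 at 1.10, without library b of MNEB 16 wkpp MS4A1 was at -3.53, and without library a of MNEB 1 wkpp CD79A was at -0.53. IGJ stayed between 2.42 and 3.45. A different course in the 2 groups of cows was therefore not shown for any member.

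At 16 wkpp, SNEB against MNEB, IGJ had a log2 fold change of -1.74 ± 0.42 in exons and -1.89 ± 0.39 in the whole gene, a level 3.34 and 3.70 times lower in SNEB. Its limma adjusted p was 0.019 in exons and 0.018 in the whole gene, past 0.05 but not 0.01. Without library c of MNEB 16 wkpp the exonic value was -2.37 and IGJ was called. MZB1 (-2.31 ± 0.61) and POU2AF1 (-1.44 ± 0.52) had the same sign, and CD79A gave -0.73 ± 0.74. The values of BLNK (1.24 ± 0.62) and MS4A1 (2.03 ± 1.12) had the opposite sign, and in the whole gene that of MS4A1 was 0.91 ± 0.79. The exonic value of MS4A1 was 3.19 without library b of MNEB 16 wkpp and 1.35 without library a of SNEB 16 wkpp. CD79A was at -1.31 without the latter library and at -0.22 without library c of that group, where BLNK was at 0.78. With all 15 libraries in one fit, -4 wkpp against MNEB 1 wkpp had more calls over all genes (1035 against 473 here). At the main settings this was the comparison with most calls over all genes, 3.18%. Of the members, 3 had an unadjusted exonic p below 0.05 (35% of all genes), and 3 did not overlap between groups in exons (IGJ, MZB1 and BLNK; 40.6% of all genes), so neither share stands far from that of all genes. The median log2 fold change was -1.08 over the members and 0.00 over all genes.

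**Figure D2:**
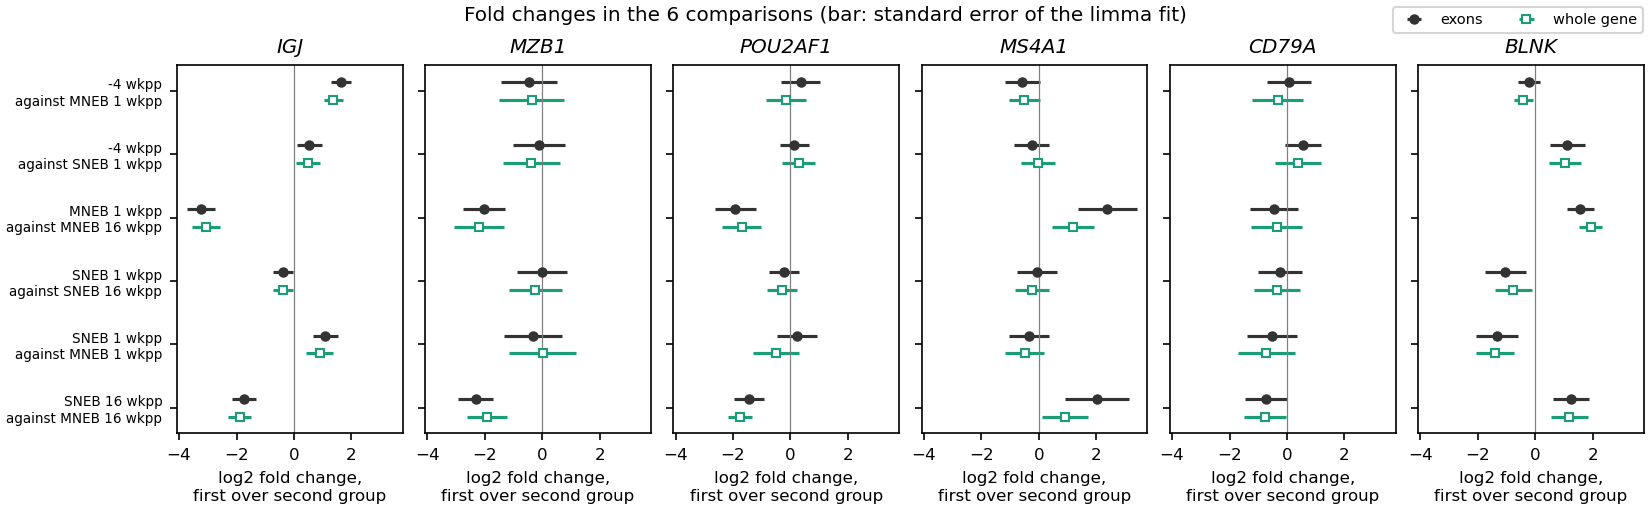
Log2 fold change (x axis, first group over second, as fitted with limma) of each gene in the 6 comparisons (y axis) for exonic reads (filled circles) and the whole gene (open squares); bars are standard errors. IGJ, MZB1 and POU2AF1 lie left of 0 in MNEB 1 wkpp against MNEB 16 wkpp (-3.24, -2.03 and -1.92 in exons), where BLNK and MS4A1 lie right of it (1.57 and 2.39).

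At 1 wkpp, SNEB against MNEB, the log2 fold change of IGJ had the opposite sign to that at 16 wkpp. It was 1.09 ± 0.43 in exons and 0.89 ± 0.48 in the whole gene. The libraries of the groups did not overlap, but narrowly. The lowest SNEB and the highest MNEB library were at 315 and 293 in exons, and at 363 and 362 in the whole gene. The limma adjusted p was 0.12 in exons and 0.35 in the whole gene. The sums of several marker lists were apart between the same groups. In SNEB 1 wkpp and MNEB 1 wkpp the macrophage genes summed to 12035 to 26447 and 2683 to 9967, the lymph node and lymphatic genes to 4801 to 10071 and 740 to 1397, and the mast cell genes to 1612 to 3598 and 686 to 1298. Adipocyte genes summed to 75113 to 90607 and 21911 to 59902, and those of skeletal muscle to 1398 to 2233 and 2969 to 5514. The muscle sums came mostly from DES (means of 1485 and 1787) and TNNT3 (222 and 2203). The part of the cells marked by these lists in the IGJ value was not tested. BLNK had the largest value, -1.33 ± 0.73, with overlapping groups, and -2.23 without library b of SNEB 1 wkpp. The other 4 members lay between -0.52 (CD79A) and 0.23 (POU2AF1), each within 1 standard error of 0, and in the whole gene POU2AF1 was at -0.50 ± 0.81. Without library b of SNEB 1 wkpp IGJ was at 0.68, MZB1 at -1.17, MS4A1 at -0.85 and POU2AF1 at -0.19, and without library a of MNEB 1 wkpp CD79A was at -1.24. Of the 6 members, 1 had an unadjusted exonic p below 0.05 (29.9% of all genes), 1 did not overlap (37% of all genes), and 0% of all genes were called. The median log2 fold change was -0.32 over the members and 0.00 over all genes.

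Around calving, IGJ was 3.10 times higher in -4 wkpp than in MNEB 1 wkpp in exons (log2 fold change 1.63 ± 0.35) and 2.58 times higher in the whole gene (1.37 ± 0.34). The limma adjusted p was 0.007 in exons and 0.056 in the whole gene, so that it was past the threshold in exons alone. The remaining members lay between -0.57 ± 0.61 (MS4A1) and 0.35 ± 0.69 (POU2AF1, -0.16 in the whole gene). Leaving out 1 library moved them to values between -0.90 (MZB1, without library c of -4 wkpp) and 0.60 (POU2AF1, without library a of -4 wkpp). IGJ was also the only member with an unadjusted exonic p below 0.05 (36.9% of all genes) and without overlap of the groups (41.6% of all genes), and 0.947% of all genes were called. Marker sums of other cells also differed between these groups. In -4 wkpp and MNEB 1 wkpp the lymph node and lymphatic genes summed to 5169 to 6715 and 740 to 1397, the mast cell genes to 3279 to 4868 and 686 to 1298, and the adipocyte genes to 69213 to 70738 and 21911 to 59902, none of them overlapping. The sums of macrophage genes (9352 to 17151 and 2683 to 9967), epidermis and hair (574 to 1302 and 71.9 to 706) and pan-leucocyte genes (4188 to 4898 and 1362 to 5190) overlapped. Their part in the IGJ value was not tested. Against SNEB 1 wkpp the -4 wkpp libraries gave an IGJ value of 0.54 ± 0.43 and a BLNK value of 1.12 ± 0.62. Without library b of SNEB 1 wkpp these were 0.95 and 2.02, and without library a 0.16 and 0.68. MZB1 and CD79A were at 0.74 and 1.18 without library b, against -0.11 ± 0.91 and 0.56 ± 0.64 with all libraries. In this last comparison 0 of 6 members had an unadjusted exonic p below 0.05 (14% of all genes) or separate groups (19.2%), and 0.0341% of all genes were called. Median log2 fold changes over the members were -0.07 against MNEB 1 wkpp and 0.34 against SNEB 1 wkpp, and over all genes -0.03 and -0.01.

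Ratios of reads within a library do not depend on how libraries are scaled. IGJ exonic reads per exonic read of MS4A1 and CD79A together were 282, 49.4 and 192 in the MNEB 16 wkpp libraries and 9.37, 10.5 and 2.59 in those of MNEB 1 wkpp. They were 23.8, 25.6 and 38.9 in -4 wkpp, 13.2, 16.5 and 37.1 in SNEB 1 wkpp, and 9.05, 31.1 and 57.8 in SNEB 16 wkpp. MNEB 16 wkpp was thus above MNEB 1 wkpp, -4 wkpp and SNEB 1 wkpp in every library, and overlapped only with SNEB 16 wkpp. MZB1 and POU2AF1 reads together per read of MS4A1 and CD79A were 6.31 and 7.50 in libraries a and c of MNEB 16 wkpp. Library b of that group gave 0.929, and the 12 libraries of the other groups lay between 0.182 and 1.00. Libraries a and c of MNEB 16 wkpp had 13 and 2 reads of MS4A1 and CD79A together, so that counting error is large in their ratios.

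**Figure D3:**
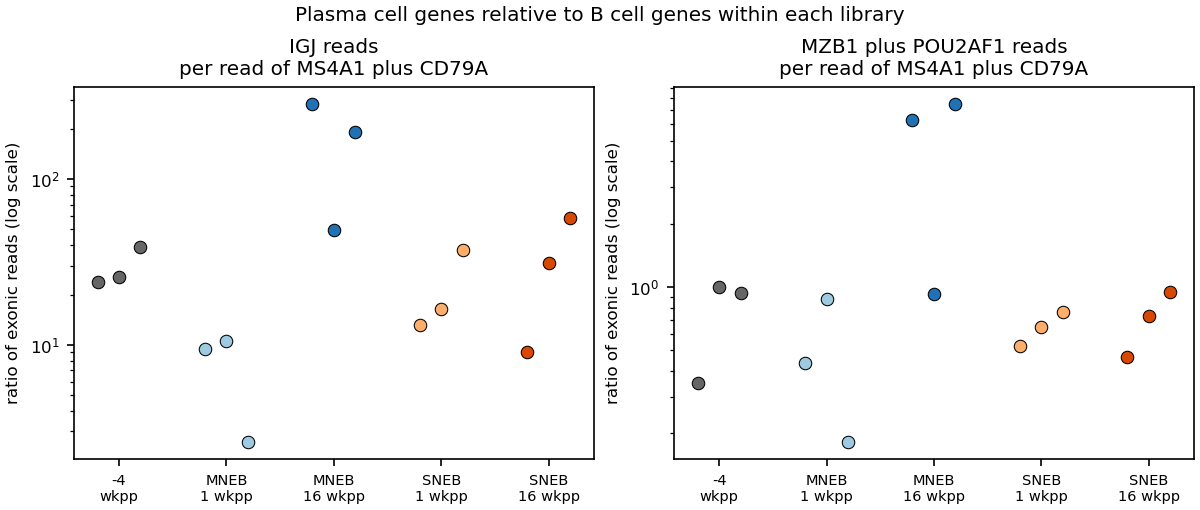
Exonic reads of IGJ (left) and of MZB1 plus POU2AF1 (right) divided by those of MS4A1 plus CD79A in the same library (y axes, log scale), by group (x axes); each point is 1 library. For IGJ the MNEB 16 wkpp libraries lie at 49.4 to 282 and those of MNEB 1 wkpp at 2.59 to 10.5.

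The members differed in the share of their whole-gene reads that fell outside exons. Summed over the 15 libraries it was 9.43% for IGJ, 18.3% for MZB1, 19.6% for CD79A, 55.9% for MS4A1, 65.0% for POU2AF1 and 80.4% for BLNK. For IGJ the share was lowest in MNEB 16 wkpp (3.52%) and highest in MNEB 1 wkpp (19.5%), the groups with its highest and its lowest level. POU2AF1 had 81.4% of its reads outside exons in MNEB 1 wkpp and 61.5 to 65.5% in the other groups. In that group its whole-gene counts were 22.5, 99.1 and 109 against exonic counts of 9.38, 13.5 and 7.35, so the level of POU2AF1 in MNEB 1 wkpp depends on which reads are used. BLNK stayed between 78.5 and 81.9% in every group.

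**Figure D4:**
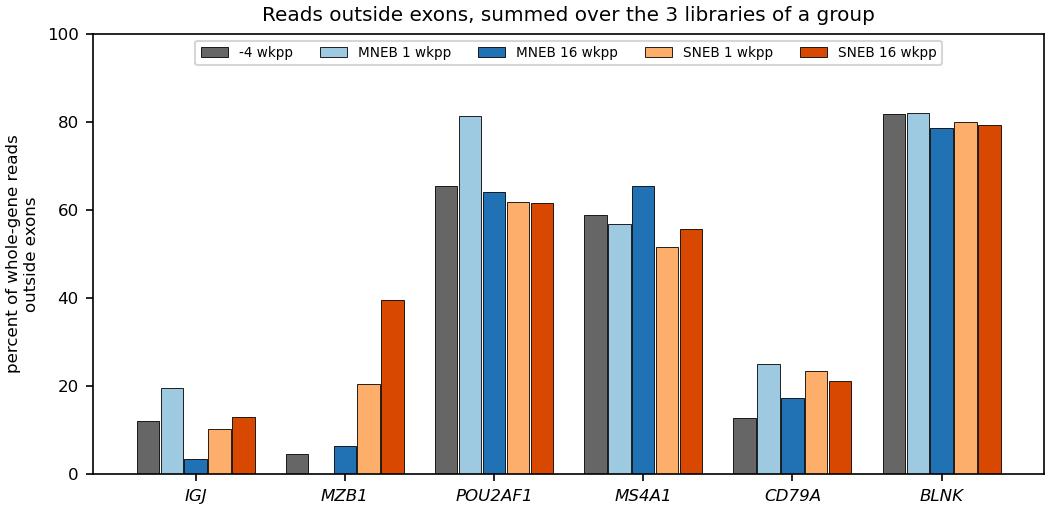
Percent of the whole-gene reads that lie outside exons (y axis), for each gene (x axis) and group (colours), from the reads of the 3 libraries of a group added up; no error bar is drawn. BLNK lies between 78.5 and 81.9% in all groups, and IGJ between 3.52 and 19.5%.

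Over the 15 libraries, Pearson's r of log2 normalised exonic counts ranged from -0.31 (MS4A1 with MZB1) to 0.84 (IGJ with POU2AF1). It was 0.73 for MZB1 with POU2AF1, 0.59 for IGJ with MZB1 and 0.53 for CD79A with MS4A1, and -0.26 for IGJ with MS4A1 and with BLNK. Once the group means were taken out, every pair was positive, from 0.15 (MS4A1 with MZB1) to 0.85 (CD79A with MS4A1). IGJ with POU2AF1 then gave 0.65, MZB1 with POU2AF1 0.49, IGJ with MZB1 0.29, IGJ with MS4A1 0.55 and IGJ with BLNK 0.39. In whole-gene counts IGJ with POU2AF1 was at 0.49, and the highest pair was CD79A with POU2AF1 at 0.75. These are descriptions over 15 libraries that share their groups, and the low counts of CD79A and MZB1 limit them. Among the 10450 genes with a mean of at least 10, those most like IGJ were RAB3C (r = 0.89), POU2AF1 (0.84), HOPX (0.82), RERG (0.81) and CYLD (0.79). POU2AF1 was most like IGJ, BMP5 (0.79), RAB3C (0.77), SGTB (0.76) and MTMR7 (0.73). For BLNK the nearest were SLC29A3 (0.87), then FGD2, MTSS1, WDFY4 and LCP2 (each 0.85), for MS4A1 HYLS1 (0.84), CD80 (0.82), SLC46A2 (0.82), GPR171 and TXK (0.81), and for CD79A TUBA4A, GPC5 and BDA20 (each 0.72), NOX1 (0.71) and CFAP45 (0.70).

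Further genes of the same lineage were described from lists drawn up for this tissue. Of 20 other B cell genes, 14 are in the tables and 11 to 13 could be tested in exons. EBF1, a B cell transcription factor that adipocytes also make, has whole-gene counts that could not be recovered from the means and so could not be called. CR2, the complement receptor CD21, which follicular dendritic cells also make, was the only gene of this list called, in SNEB 16 wkpp against MNEB 16 wkpp (log2 fold change 3.95 ± 0.41, with means of 3355 and 284). The median log2 fold change of the list in that comparison was 0.67.

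Of 20 plasma cell genes, 19 were tested in each comparison and 0 were called. In MNEB 1 wkpp against MNEB 16 wkpp 4 of the 19 had an unadjusted exonic p below 0.05 and a negative value and 1 a positive value, where 11.6% of all genes had such a p in either direction. The 4 were SSR4 (-1.18 ± 0.25), HSP90B1 (-0.91 ± 0.38) and PDIA4 (-0.72 ± 0.30), which serve protein entry and folding in the endoplasmic reticulum of any secretory cell, and SDC1 (-1.36 ± 0.51), the surface proteoglycan CD138. The gene with the opposite sign was CD38, a surface enzyme (2.08 ± 0.79). Of the factors that drive plasma cell differentiation, XBP1 gave -0.50, IRF4 0.37 and PRDM1 0.30, and the median of the list was -0.02. The genes named from this list were picked after their values were seen. In SNEB 16 wkpp against MNEB 16 wkpp the median of the list was 0.35, and 4 of the 19 had an unadjusted exonic p below 0.05, against 35% of all genes. SDC1 was lower in SNEB at -1.62 ± 0.33 (adjusted p by limma 0.0091 in exons and 0.014 in the whole gene). FKBP11 (0.80 ± 0.26), SEL1L (0.52 ± 0.18) and ELL2 (0.51 ± 0.17) had positive values. More of the list stood apart at MNEB 1 wkpp. In SNEB 1 wkpp against MNEB 1 wkpp 9 of the 19 had an unadjusted exonic p below 0.05 and a positive value and 0 a negative one, beside 29.9% of all genes in either direction, with a median of 0.73 over the list. These 9 lay between 0.73 ± 0.32 (SEC11C) and 1.10 ± 0.35 (HSP90B1), and XBP1 was at 0.76 ± 0.22. In -4 wkpp against MNEB 1 wkpp 8 of the 19 were positive and 3 negative at that p, beside 36.9% of all genes, with a median of 0.60. The 8 ran from 0.79 ± 0.20 (ELL2) to 1.46 ± 0.30 (TXNDC5) and included XBP1 (0.92 ± 0.24), while IRF4 (-2.04 ± 0.72), CD38 (-1.75 ± 0.67) and PRDM1 (-0.99 ± 0.24) were the 3 with negative values. The summed counts of the list were 7719 to 10292 in MNEB 1 wkpp, apart from the 13216 to 14899 of SNEB 1 wkpp and the 13192 to 16751 of -4 wkpp.

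Of 16 genes of B cell receptor signalling, 12 were tested. In SNEB 16 wkpp against MNEB 16 wkpp SYK, the kinase upstream of BLNK, was called higher (1.53 ± 0.27). No gene of the list was called in the other 5 comparisons. Of 10 ligands of B cell survival and homing and of IgA transport, 7 to 9 were tested and 0 were called. The survival factors TNFSF13B and TNFSF13 gave 0.49 and -0.10 in MNEB 1 wkpp against MNEB 16 wkpp. IL7, a factor of early lymphocytes, was the 1 ligand of 7 with an unadjusted exonic p below 0.05 there (limma, -2.76 ± 1.22, unadjusted p 0.048, means of 6.70 and 18.5), and its whole-gene value was 0.10. The chemokine CXCL12, which retains plasma cells in bone marrow, gave -0.58 there. In SNEB 16 wkpp against MNEB 16 wkpp 4 of 8 tested ligands had an unadjusted exonic p below 0.05, all with higher values in SNEB, beside 35% of all genes in either direction. They were the chemokines CCL21 (5.44 ± 1.48), CCL19 (1.32 ± 0.55) and CXCL12 (0.67 ± 0.19), and TNFSF13 (0.59 ± 0.24). CCL21, which draws lymphocytes into lymph vessels and nodes, had means of 274 in SNEB and 8.73 in MNEB and a limma adjusted p of 0.03 in exons and 0.11 in the whole gene. In -4 wkpp against MNEB 1 wkpp its log2 fold change was 5.85 ± 0.77, with means of 652 and 20.9 and a limma adjusted p of 0.00055 in exons and 0.053 in the whole gene. CCL19 and CCL21 are also in the list of lymph node and lymphatic genes, and the ligands given here were picked after their values were seen.

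Markers of other cells moved with the groups. In MNEB 16 wkpp, where IGJ, MZB1 and POU2AF1 were at their highest means, the 10 pan-leucocyte genes summed to 1754 to 2445, against 4533 to 7749 in SNEB 16 wkpp. The 9 macrophage genes summed to 2824 to 3778 against 22345 to 28626, and the 9 genes of lymph node stroma and lymphatic vessels to 539 to 1105 against 6113 to 8310. Where 3.18% of all genes were called, 2 of 10 pan-leucocyte genes (PTPRC and LAPTM5), 3 of 6 macrophage genes tested in both kinds of reads (CD163, MSR1 and CSF1R) and 3 of 8 lymphatic genes (CR2, MMRN1 and LYVE1) were called higher in SNEB. The other 3 macrophage genes, C1QA, C1QB and C1QC of the complement C1q chains, are listed at 0 for the whole gene in the tables and could not be called in any comparison. In exons they were higher in SNEB by 3.87 ± 0.35, 3.72 ± 0.26 and 3.45 ± 0.25 on the log2 scale, with limma adjusted p of 0.00042, 0.00021 and 0.00021. BLNK thus had its lowest mean in the same group as the macrophage genes, and IGJ its highest. T cell genes summed to 233 to 344 and 331 to 696, with 0 of 14 called and 1 gene at 0 in MNEB 16 wkpp. Between MNEB 1 wkpp and MNEB 16 wkpp, 0 genes of any of these lists were called. The pan-leucocyte sum was 1362 to 5190 and the macrophage sum 2683 to 9967 in MNEB 1 wkpp, ranges that hold those of MNEB 16 wkpp.

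Mast cell genes (5 tested) gave sums of 811 to 1273 in MNEB 16 wkpp and 2419 to 2852 in SNEB 16 wkpp. Of these genes 2 were called higher in SNEB (CPA3 and KIT), beside 3.18% of all genes called. An unadjusted exonic limma p below 0.05 was reached by 3 with higher and 1 with lower values in SNEB, beside 35% of all genes. GATA2 was lower in every SNEB library, with means of 368 in SNEB and 645 in MNEB. HDC had means of 34.7 and 35.6. Skeletal muscle genes summed to 5305 to 10229 in MNEB 16 wkpp and 654 to 2558 in SNEB 16 wkpp, with TNNT3 called lower in SNEB, and to 2969 to 5514 in MNEB 1 wkpp. DES and TNNT3 made up most of these sums, with means of 4827 and 2823 in MNEB 16 wkpp. ACTA1, MYH1 and CKM had means of 13, 2.53 and 2.49 in that group. Genes of epidermis and hair summed to 71.9 to 706 in MNEB 1 wkpp and 195 to 300 in MNEB 16 wkpp. Adipocyte genes summed to 12056 to 44778 in MNEB 16 wkpp and 45208 to 52576 in SNEB 16 wkpp, and in -4 wkpp against MNEB 1 wkpp LPL and CIDEC were called higher in -4 wkpp. In that comparison 4 of 8 adipocyte genes had an unadjusted exonic p below 0.05 and a positive value and 2 a negative one, the lipases LIPE (-0.94 ± 0.25) and PNPLA2 (-0.52 ± 0.19). The part of these cells, and of the depth and alignment of the libraries, in the values of the B cell and plasma cell genes was not tested.

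**Figure D5:**
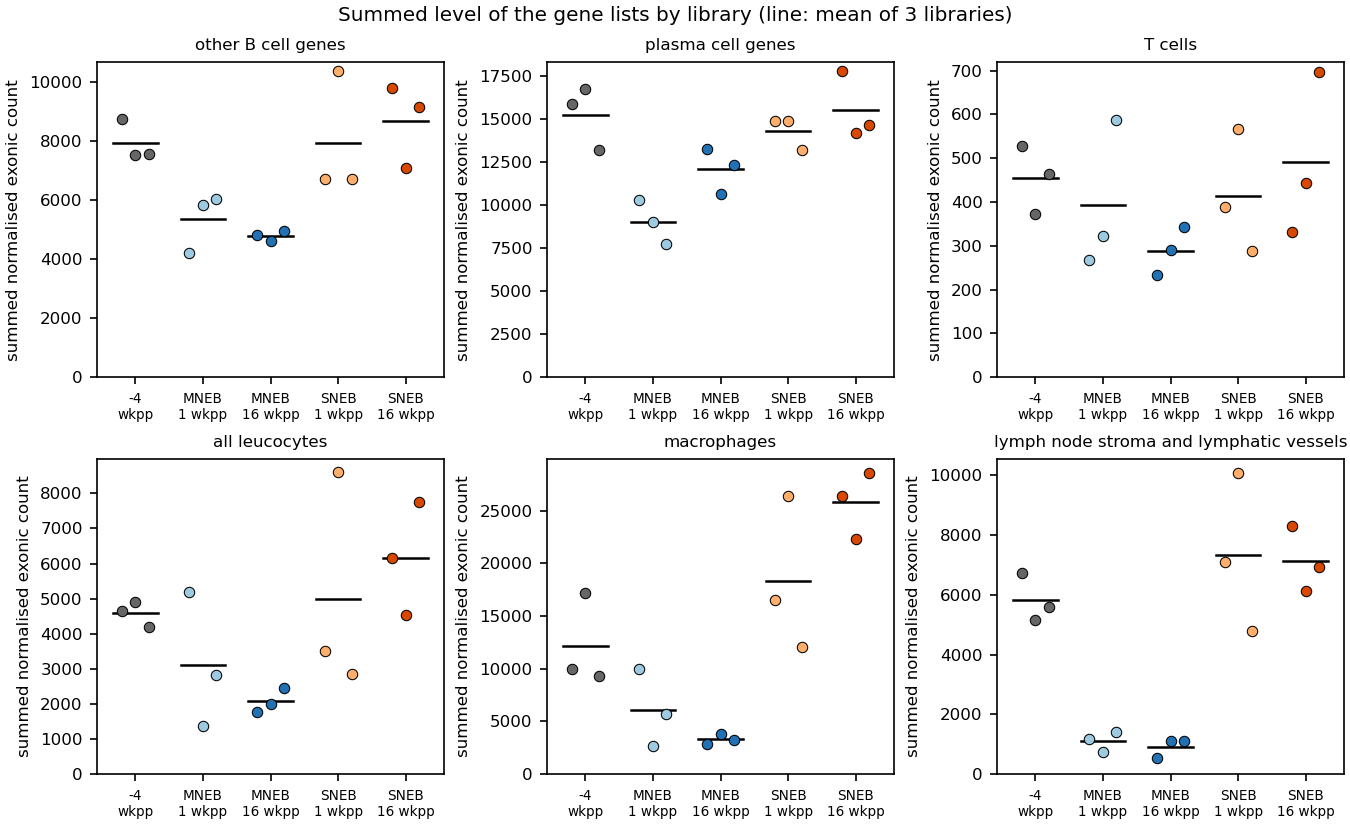
Summed normalised exonic counts (y axis) of 6 gene lists by group (x axis); each point is 1 library and the line is the mean of 3 libraries. The macrophage sum is 2824 to 3778 in MNEB 16 wkpp and 22345 to 28626 in SNEB 16 wkpp, while the plasma cell list, dominated by genes that any secretory cell uses, runs from 10675 to 13256 and from 14174 to 17806.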

How the data were processed

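The 6 deposited tables hold, for each gene, the mean over 6 libraries of the count divided by DESeq2 size factors of the authors, for exons and for whole genes, together with columns of the comparison itself (log2 fold change, standard error, statistic, p-value and adjusted p-value), which were not used. Per the study's methods, total RNA was depleted of ribosomal RNA, libraries were stranded, reads were trimmed by Cutadapt 1.3, aligned by TopHat2 to bosTau8 and counted by htseq-count. No column belonged to another sample (0 columns). The means carry 15 digits, so the whole counts of the 15 libraries that give all 6 means of a gene were recovered by lattice reduction (sympy 1.14.0), for 13886 of 13896 genes in exons and 13884 in whole genes. Size factors recomputed from these counts differed from those of the authors by at most 0.0795%. The groups of libraries follow from the tables that hold them; labelled samples do not. Recovery and fits were tested on simulated data.

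limma 3.58.1 (R 4.3.3) was fitted with voom to the 6 libraries of a comparison, with median-of-ratios scaling, spike-ins left out, and at least 10 reads in total. The members and all lists were chosen with earlier results of these data known. Members were named in full; of the lists, called genes and counts were named, and for likeness the 5 genes of highest Pearson's r on log2(normalised exonic count + 1) over 15 libraries. The study's methods state separate cows within a group and repeated sampling over time, but the labels tie no cow to a library, so libraries were fitted as independent. Results of some list genes are not reported here.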

Additional observations from a re-analysis of the deposited data

How the results depend on the processing

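None of the 6 members was called in any comparison, and 109 of 113 counts of called members under other settings were also 0 (scaling by total counts or upper quartile, filters of 1 and 60 reads, all 15 libraries in one fit, limma without weights, library quality weights added after seeing the data, other thresholds, each library left out). The exceptions concerned IGJ. In -4 wkpp against MNEB 1 wkpp, 1 member was called with exons alone and 1 with quality weights. In SNEB 16 wkpp against MNEB 16 wkpp, 1 was called at an adjusted p below 0.05, and leaving out each library gave 0 to 1, with 1 when library c of MNEB 16 wkpp was left out; the cause was not tested. Of 545 other values of the fold changes of members, 34 had the other sign. None of these 34 belonged to the 12 fold changes with an unadjusted limma p below 0.05. With a library left out, some values moved by more than their standard error. IGJ in SNEB 16 wkpp against MNEB 16 wkpp went from -1.74 ± 0.42 to -2.37, and BLNK in -4 wkpp against SNEB 1 wkpp from 1.12 ± 0.62 to 2.02. CD79A and MZB1 had under 60 reads in some comparisons and have no value there under that filter. Over all genes, 114 were called in -4 wkpp against MNEB 1 wkpp (75 higher, 39 lower) and 169 with scaling by total counts (87 higher, 82 lower). The balance turned with all 15 libraries in one fit (1035 called, 368 higher, 667 lower) and with quality weights (1584 called, 686 higher, 898 lower). With the filter of 1 read 65 were called, and as few as 0 with a library left out. In SNEB 16 wkpp against MNEB 16 wkpp the 365 calls became 27 to 473, and in SNEB 1 wkpp against MNEB 1 wkpp the 0 calls became up to 829. No paired analysis was possible because the recovered libraries carry no replicate numbers. Depth limits MZB1 and CD79A most, at 2 to 30 exonic reads in a library.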
